A study of Mus musculus with 7 samples.

Results

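Keratins and markers of the mesothelium that covers the heart were followed in RNA sequencing of mouse myocardium after infarction. The set holds 10 of the 56980 genes in the table: 5 keratin genes (Krt14, Krt7, Krt8, Krt18 and Krt19), 4 genes for surface proteins of mesothelial cells (Msln, Upk1b, Upk3b and Lrrn4) and the transcription factor gene Bnc1. Krt14 was chosen by its measured values, since it was listed at 0 in the hearts of all sham-operated mice and was present in those of all infarcted mice, so its difference between the groups is given as a description without a test. The other 9 genes were listed by name as markers, with earlier results of these data known.

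The tissue came from 7 male wild-type C57BL/6J mice, bought at 8 weeks of age, and each mouse gave 1 library of total RNA. In 3 mice the left coronary artery was ligated (MI), and 4 mice went through the same operation without ligation (sham). Myocardial tissue was taken 4 days after surgery, and the sources used here do not say how much of each sample was infarct, border, remote muscle or epicardial surface. All mice were of 1 strain and sex and all were operated on, and no transgene is described. Values are FPKM, the fragments counted on a gene relative to its length and to the depth of the library, and the libraries held 19977711 to 23610868 fragments.

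Keratins are the intermediate filament proteins of epithelial cells and assemble as pairs of a type I and a type II chain. Krt8 and Krt7 are type II chains and Krt18 and Krt19 are type I chains of simple, single-layered epithelia, which include the mesothelium. Krt14 is a type I chain best known from the basal layer of epidermis, where Krt5 is its partner. The mesothelial layer of the heart is the outer cell layer of the epicardium, a source of fibroblasts and mural cells in the embryo that becomes active again after injury in the adult. Cardiac muscle cells use desmin rather than keratins as their main cytoplasmic intermediate filament.

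Among the infarcted mice, MI replicate 2 stood apart. In this mouse, the summed FPKM of 8 fibroblast and matrix genes was 218, against 2320 and 1790 in MI replicates 1 and 3 and 117 to 136 in the sham mice, and that of 8 cardiomyocyte genes was 13200, inside the sham range of 13100 to 14300, against 9220 and 9760. Fold changes of the 10 genes are therefore also given without this mouse. With all 7 mice, limma's moderated test on log2(FPKM + 1) over 11431 genes, those at 1 FPKM or more in 3 or more of the mice, called 3 genes at a Benjamini-Hochberg adjusted p under 0.05, and without MI replicate 2 it called 8195. The median gene had a log2 fold change of 0.21 on the deposited scale, a shift that fell to 0.00 when each library was scaled by its median log-ratio.

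In all 10 genes, in Krt14 by its selection, every MI mouse lay above every sham mouse. The same order held in 16.1% of all genes tested, and in 12.0% of the 30504 genes above 0 when none was filtered out. The 10 genes kept it under TPM, quantile normalization and median log-ratio scaling, where it held in 16.5%, 11.0% and 13.7% of all genes tested. Of the 10, 8 passed the filter on low values, and 7 of these, all but Upk3b, passed it only because they were high in MI, since Msln reached 1 FPKM in 2 sham mice, Lrrn4 in 1 and the other 5 in 0, so that neither their order nor their tests are read as support. Krt14, selected on this contrast, is left out of the counts of calls. Of the other 7 that passed, limma called 0, with adjusted p-values of 0.0652 to 0.108 and log2 fold changes of 1.25 to 2.20, where 0.0175% of all genes tested were called higher in MI. All 7 had an unadjusted p under 0.05, as did 29.5% of all genes tested in this direction, and voom on recovered fragments called 0 of them. Without MI replicate 2 limma called these 7, with adjusted p-values of at most 0.00183, but then 57.0% of all genes tested were called higher in MI, and nothing is read from these calls. The log2 fold changes without this mouse were 1.49 for Krt8, 1.71 for Krt19, 1.87 for Msln, 2.12 for Upk1b, 1.89 for Upk3b and 1.94 for Lrrn4, against 0.33 for the median gene. It was 1.36 for Krt14. In a fit with no filter, an alternative chosen after seeing the data, it was 0.59 for Krt7 and 0.85 for Bnc1. Both remaining MI mice lay above every sham mouse in 61.9% of all genes tested. The size of these log2 fold changes depends on the scale, since a pseudocount of 1 compresses low genes. With a pseudocount of 0.1 that of Krt8 was 2.42 in place of 1.25, and voom on recovered fragments gave 2.74. Rescaling the libraries moved them the other way, and quantile normalization and median log-ratio scaling each lowered the log2 fold changes of all 7. They gave 1.00 and 1.09 for Krt8 and 1.48 and 1.57 for Msln, where the deposited scale gave 1.25 and 1.77. In whole tissue, more cells of a type and more RNA per cell cannot be told apart.

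**Figure D1:**
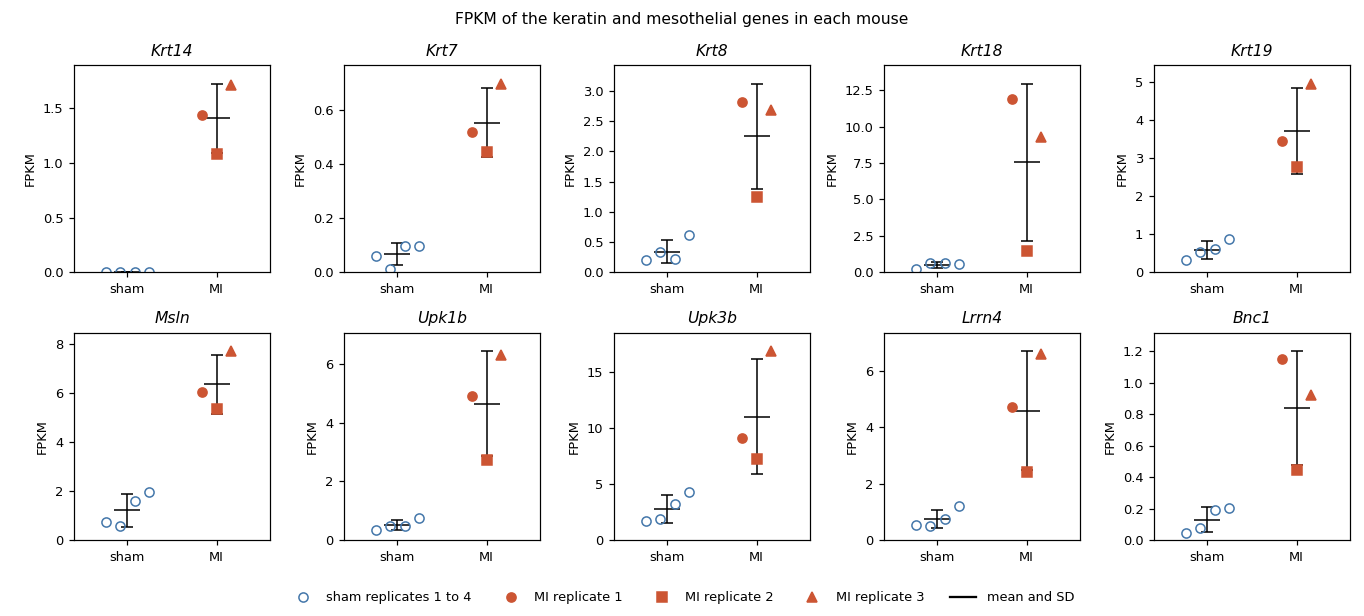
Each panel shows the FPKM of 1 gene (vertical axis, linear, from 0) in the 4 sham mice (open circles) and the 3 MI mice (filled symbols, with MI replicate 2 as the square), with the mean and SD of each group as black bars. In each of the 10 panels the MI mice lie above the sham mice, and MI replicate 2 is the lowest MI mouse.

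Krt8 (ENSMUSG00000049382, chr15:101996698-102004482, minus strand, GRCm38) and its partner Krt18 (ENSMUSG00000023043, chr15:102028180-102032027, plus strand) lie near each other in opposite orientation. Their promoters are shown because these genes encode the usual pair of simple epithelia, and those of Upk3b and Lrrn4 because Lrrn4 was the gene nearest to Upk3b in its changes across the 7 mice. RefSeq promoter entries (GRCm38.p6) were matched for 7 of the 10 genes, and Krt19, Msln and Upk1b had none. The Krt14 entry began downstream of the first coding base of the gene in GENCODE M21 and was left out. Each sequence runs 5′ to 3′ from 250 bases before the RefSeq start site to 20 bases after it, with capitals marking GGAATG (the core bound by TEAD factors) or TATAAA (the TATA box) on either strand.
Krt8, chr15:102004323-102004592, minus strand: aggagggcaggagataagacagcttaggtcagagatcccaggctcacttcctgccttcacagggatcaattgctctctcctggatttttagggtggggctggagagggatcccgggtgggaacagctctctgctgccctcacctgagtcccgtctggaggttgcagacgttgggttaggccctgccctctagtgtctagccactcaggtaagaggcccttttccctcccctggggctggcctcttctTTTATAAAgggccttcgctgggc
Krt18, chr15:102027966-102028235, plus strand: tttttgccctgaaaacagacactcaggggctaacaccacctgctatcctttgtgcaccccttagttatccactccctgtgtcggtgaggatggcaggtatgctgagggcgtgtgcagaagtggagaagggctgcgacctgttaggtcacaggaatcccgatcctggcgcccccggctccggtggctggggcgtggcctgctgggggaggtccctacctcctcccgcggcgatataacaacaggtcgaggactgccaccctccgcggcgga
Upk3b, chr5:136038246-136038515, plus strand: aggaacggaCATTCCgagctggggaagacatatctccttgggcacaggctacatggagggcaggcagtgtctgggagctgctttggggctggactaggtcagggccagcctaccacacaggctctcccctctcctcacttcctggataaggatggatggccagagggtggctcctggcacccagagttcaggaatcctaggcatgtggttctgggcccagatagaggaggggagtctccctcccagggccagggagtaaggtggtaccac
Lrrn4, chr2:132880843-132881112, minus strand: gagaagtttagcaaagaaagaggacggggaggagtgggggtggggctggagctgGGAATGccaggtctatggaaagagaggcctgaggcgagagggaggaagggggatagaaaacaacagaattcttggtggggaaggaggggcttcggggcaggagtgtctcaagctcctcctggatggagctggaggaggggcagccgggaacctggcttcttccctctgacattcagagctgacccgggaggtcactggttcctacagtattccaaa

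TATAAA was found in the Krt8 window alone among the 6 windows searched. The 2 overlapping matches, 1 per strand, began 3 and 1 bases before the listed start. TATAAA was present in 12.9% of all 32851 promoter windows of this length. GGAATG was found 241 bases before the start of Upk3b and 196 bases before that of Lrrn4, in 2 of the 6 windows, and in 13.5% of all windows. GGGCGG, the core bound by SP1, was found in 2 of the 6, Bnc1 with 5 matches and Krt7 with 4, and in 34.1% of all windows. TGANTCA, the site of AP-1, was found in 0 of the 6 and in 7.23% of all windows. A match marks these letters in this stretch and no more.

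Among the simple keratins, Krt18 reached the highest level after infarction but in only some of the mice. Its FPKM was 0.217, 0.610, 0.652 and 0.557 in sham replicates 1 to 4 and 11.9, 1.48 and 9.31 in MI replicates 1 to 3. MI replicates 1 and 3 were high, and MI replicate 2 was 2.26 times the highest sham mouse. The mean was 0.509 ± 0.198 (SD, n = 4) in sham and 7.55 ± 5.41 (SD, n = 3) in MI, the numbers of mice behind every mean given here, a ratio of 14.8, and the log2 fold change was 2.20 (SE 0.528, limma adjusted p = 0.108). These levels rest on 7 to 22 fragments per sham library and on 371, 48 and 316 fragments in the MI libraries. Without MI replicate 2 the log2 fold change of Krt18 was 2.94 (SE 0.149).

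Krt8, the type II partner, had FPKM values of 0.205, 0.330, 0.218 and 0.614 in the sham mice and 2.81, 1.24 and 2.68 in the MI mice. Again MI replicates 1 and 3 lay close together, and MI replicate 2 was at 45.2% of their mean. The mean was 0.341 ± 0.190 in sham and 2.25 ± 0.873 in MI, a ratio of 6.58, with a log2 fold change of 1.25 (SE 0.208, limma adjusted p = 0.108). Of the 100-base stretches of the Krt8 transcripts, 17.05% also occur in transcripts of the pseudogene Krt8-ps or of Gm36026. Krt8-ps was listed at 0.680, 0.280 and 0.717 FPKM in the MI mice and at 0 to 0.146 in the sham mice, so that the division of reads between Krt8 and this copy is uncertain. Gm36026 was listed at 0 in every mouse.

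The pair did not keep a fixed balance. The ratio of Krt18 to Krt8 FPKM was 1.06, 1.85, 3.00 and 0.908 in the sham mice and 4.21, 1.19 and 3.47 in the MI mice. MI replicates 1 and 3 had a higher ratio than any sham mouse, while MI replicate 2 lay within the sham range.

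Krt19 (ENSMUSG00000020911, chr11:100140810-100148665, minus strand), a type I keratin, followed a more even course among the MI mice. Its FPKM was 0.325, 0.533, 0.602 and 0.879 in the sham mice and 3.46, 2.76 and 4.97 in the MI mice. The mean ratio was 6.38 and the log2 fold change 1.56 (SE 0.183, limma adjusted p = 0.0652). Krt7 (ENSMUSG00000023039, chr15:101411043-101430313, plus strand), a type II keratin typical of ducts and mesothelium, had the lowest mean of the 10 genes in MI. It was at 0.0589, 0.0111, 0.0972 and 0.0962 FPKM in the sham mice and 0.518, 0.446 and 0.697 in the MI mice. These values stand for 2 to 19 fragments in the sham libraries and 84 to 137 in the MI libraries. Krt7 was below the filter, and in a limma fit over all 30504 genes above 0 its log2 fold change was 0.54 (SE 0.0672, adjusted p = 0.0883). On the log2(FPKM + 1) scale the change of such a low gene is understated, as its ratio of means was 8.41.

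Krt14 (ENSMUSG00000045545, chr11:100203162-100207548, minus strand) differed from the other 4 keratins in having no fragment in any sham mouse. Its FPKM was 1.44, 1.08 and 1.71 in the MI mice, from 55, 43 and 71 fragments. Set against a floor of 3 fragments per sham library, a mean of 0.0782 FPKM, the MI mean of 1.41 ± 0.316 (SD, n = 3) was at least 18.0-fold higher. A count of 0 limits what this depth could show and does not show that the RNA was absent. Of the 100-base stretches of the Krt14 transcripts, 2.78% also occur in Krt16, which was listed at 0 in every mouse.

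Most genes that accompany Krt14 in epidermis were at or near 0. Krt5, its usual type II partner, and Krt1 were listed at 0 in all 7 mice, as were the epidermal genes Dsg3, Ivl, Flg and Lypd3. Krt15 was listed at 0 in all MI mice, Krt17 at 0.0546 FPKM in MI replicate 3 and at 0 elsewhere, and Trp63, which encodes the p63 factor of basal epithelia, at 0.0407 to 0.155 in sham and 0.0386 to 0.0808 in MI. Over the list of 17 epidermal genes, 1 had every MI mouse above every sham mouse, against 12.0% of all genes above 0. It was the cornified layer gene Sbsn at 1.55, 0.634 and 1.38 FPKM in the MI mice and 0.208 to 0.272 in sham. Leaving out Perp, a junction gene expressed at 64.8 FPKM or more in every sham mouse, the list summed to 1.81 to 2.58 FPKM in sham and to 8.13, 2.19 and 5.54 in the MI mice, of which Sfn, the stratifin gene, gave 5.49, 0.986 and 3.02 FPKM in the MI mice and 0.951 to 1.77 in sham. The part of skin-derived RNA in the Krt14 values was not tested.

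Msln (ENSMUSG00000063011, chr17:25748613-25754378, minus strand) encodes mesothelin, the surface glycoprotein for which mesothelial cells are known. Its FPKM was 0.745, 0.556, 1.59 and 1.96 in the sham mice and 6.01, 5.32 and 7.68 in the MI mice. The groups were well apart, and MI replicate 2 was at 77.8% of the mean of the other MI mice. The mean was 1.21 ± 0.670 in sham and 6.34 ± 1.21 in MI, a ratio of 5.23, with a log2 fold change of 1.77 (SE 0.247, limma adjusted p = 0.104). Msln was the only member besides Upk3b and Lrrn4 to reach 1 FPKM in any sham mouse.

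Upk3b (ENSMUSG00000042985, chr5:136038496-136046487, plus strand) and Upk1b (ENSMUSG00000049436, chr16:38773184-38800328, minus strand) encode uroplakins, membrane proteins first known from the bladder lining. Upk3b had the highest mean of the 10 genes in both groups, at 1.73, 1.83, 3.19 and 4.28 FPKM in the sham mice and 9.07, 7.18 and 16.8 in the MI mice. Its ratio of means, 4.00, was the lowest of the 9 genes above 0 in sham, and its log2 fold change was 1.65 (SE 0.331, limma adjusted p = 0.108). Upk1b was at 0.354, 0.488, 0.469 and 0.750 FPKM in the sham mice and at 4.90, 2.74 and 6.29 in the MI mice. Its ratio of means was 9.01 and its log2 fold change 1.85 (SE 0.222, limma adjusted p = 0.0652).

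Relatives of these genes were examined as well. Upk3a and Upk3bl were listed at 0 in every mouse, and Upk1a at 0.251 to 0.564 FPKM in sham and 0.355 to 0.507 in MI. Of 9 relatives of the 5 genes outside the keratins, 0 passed the filter and 0 had every MI mouse above every sham mouse, where 12.0% of all genes above 0 did, so that little is read from so short a list. The largest difference among them was that of Lrrn2, at 5.66 and 3.97 FPKM in MI replicates 1 and 3 but 0.670 in MI replicate 2, below all 4 sham mice (0.674 to 0.869).

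Lrrn4 (ENSMUSG00000043110, chr2:132868305-132880891, minus strand), a leucine-rich repeat membrane protein gene, was at 0.516, 0.496, 0.757 and 1.19 FPKM in the sham mice and at 4.72, 2.40 and 6.61 in the MI mice. The lowest MI mouse was 2.03 times the highest sham mouse. Its ratio of means was 6.20 and its log2 fold change 1.62 (SE 0.275, limma adjusted p = 0.108). Bnc1 (ENSMUSG00000025105, chr7:81966672-81992292, minus strand) encodes basonuclin 1, a zinc finger factor of keratinocytes, germ cells and mesothelium. It was at 0.0476, 0.0788, 0.191 and 0.203 FPKM in the sham mice and at 1.15, 0.444 and 0.923 in the MI mice, from 5 to 21 and 47 to 117 fragments. The groups did not overlap, the ratio of means was 6.44, and in the fit over all genes above 0 the log2 fold change was 0.68 (SE 0.142, limma adjusted p = 0.188). Its relative Bnc2 stayed at or below 0.191 FPKM in every mouse.

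Ordered by mean FPKM, the sham hearts ran Upk3b, Msln, Lrrn4, Krt19, Upk1b, Krt18, Krt8, Bnc1, Krt7 and Krt14, and the ranges of 7 of the 9 neighbouring pairs overlapped. Krt8 over Bnc1 and Krt7 over Krt14 were the pairs that did not overlap. Within single mice the order was firmer than the ranges, since Upk3b was above Msln, and Msln above Lrrn4, in 4 of 4 sham mice. Lrrn4 was above Krt19, Krt19 above Upk1b, Krt18 above Krt8 and Bnc1 above Krt7 in 3 of 4, and Upk1b above Krt18 in 2 of 4. In the MI hearts the order was Upk3b, Krt18, Msln, Upk1b, Lrrn4, Krt19, Krt8, Krt14, Bnc1 and Krt7, and the ranges of all 9 neighbouring pairs overlapped, although Msln was above Upk1b, Krt19 above Krt8, Krt8 above Krt14 and Krt14 above Bnc1 in 3 of 3 mice. Krt18 moved from place 6 to place 2, through MI replicates 1 and 3, and in MI replicate 2 it stood below Upk3b, Msln, Upk1b, Lrrn4 and Krt19. These places depend on the gene lengths behind the deposited FPKM. The implied lengths differed from the exon bases in GENCODE M21 for Krt7, Krt19, Msln, Upk1b and Bnc1, and that of Msln was 5144 against 3064.

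The sham mice differed among themselves, for most of these genes in a like order. How often this order held over all genes was not counted, so it is not read as particular to this set. Of the 9 genes above 0 in sham, sham replicate 4 was the highest for 7 and sham replicate 3 for 2, and the lowest was sham replicate 1 for 6 and sham replicate 2 for 3. The highest sham mouse exceeded the lowest by 3.52 times for Msln, 2.48 times for Upk3b, 2.39 times for Lrrn4 and 2.12 times for Upk1b. For the keratins it did so by 8.78 times for Krt7, 3.00 times for Krt18, 2.99 times for Krt8 and 2.71 times for Krt19, and for Bnc1 by 4.27 times. The 10 genes together summed to 4.20 to 10.5 FPKM in the sham mice and to 45.9, 25.1 and 57.7 in the MI mice. Replicate numbers carry no order. How much epicardial surface each piece of tissue held is not given in the sources used here, and its part in these values was not tested.

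Read per Msln fragment, which sets each library against its own mesothelial signal, 7 of the other 9 genes had ranges that overlapped between the groups, where the groups did not overlap for 90.0% of all genes tested. Msln itself differed between the groups, so that a gene at the same FPKM in all mice is lower per Msln fragment in MI, and 0.0612% of all genes tested had every MI mouse above every sham mouse on this scale. Krt19 fragments were 17.2% to 43.5% of Msln fragments in sham and 23.5% to 29.4% in MI, and Lrrn4 fragments were 34.4% to 64.5% and 32.6% to 62.2%. Those of Upk3b were 138% to 226% and 92.6% to 150%. The ranges of Krt8, Krt18, Upk1b and Bnc1 overlapped as well. Krt18 was at 55.1% and 33.9% of Msln in MI replicates 1 and 3 but at 7.74% in MI replicate 2, just under its sham range of 7.96% to 30.6%. Krt7 was at 3.23% to 12.8% in sham and 13.5% to 14.7% in MI.

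Krt7 and, by the way it was selected, Krt14 had groups that did not overlap on this scale. For Krt7 the gap was narrow, from 12.8% in sham replicate 1 to 13.5% in MI replicate 2. The former rests on 11 Krt7 and 86 Msln fragments, so little is read from it. Krt7 did not pass the filter, so the share over all genes tested does not cover it. Krt14 fragments were 8.17%, 6.94% and 7.61% of Msln fragments in MI replicates 1 to 3, a narrow range that included MI replicate 2. The 4 sham libraries held 541 Msln fragments and 0 Krt14 fragments, which allows a share of up to 2.22% at the floor of 3 fragments per library used above, or 12 in all. This limit covers counting error only, and the difference is what Krt14 was chosen for.

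**Figure D2:**
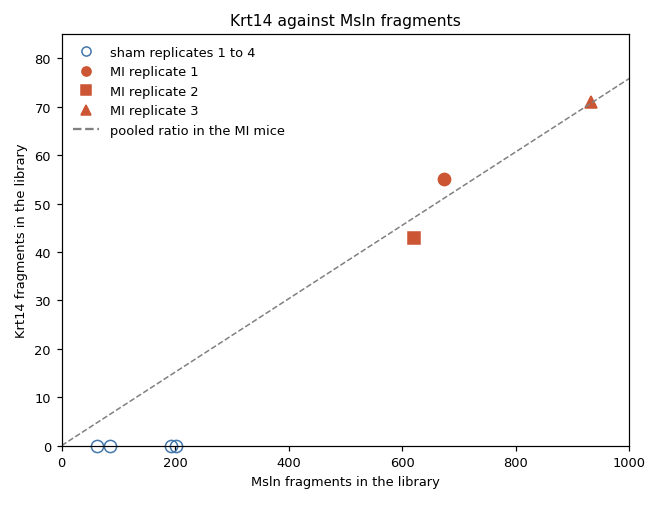
Points show the recovered fragments on Krt14 (vertical axis) and on Msln (horizontal axis) in each of the 7 libraries, and the dashed line is the pooled MI ratio of 7.59%. The 3 MI mice lie near this line, with 43 to 71 Krt14 fragments, and the 4 sham mice lie at 0 although they hold 62 to 201 Msln fragments.

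The difference of MI replicate 2 from the sham mice was compared with that of the other MI mice, gene by gene. For each gene, the difference of MI replicate 2 from the sham mean, in log2(FPKM + 1), was taken as a percentage of the mean difference of MI replicates 1 and 3. This was 83.8% for Msln, 74.5% for Krt7 and 73.4% for Krt19. It was 62.4% for Upk3b, 61.9% for Upk1b, 50.8% for Lrrn4, 50.3% for Krt8, 41.9% for Bnc1 and 24.6% for Krt18. The median of these 9 was 61.9%. For Krt14, which was chosen for its presence in all MI mice, it was 77.6%. Over the 1842 genes tested in which every MI mouse lay above every sham mouse, the median was 22.4%, and 11.5% of them were at or above 61.9%. The 8 fibroblast and matrix genes ranged from 8.63% (Thy1) to 25.5% (Col3a1), so that Krt18 alone among the 10 lay in their range. The percentages rest on 1 mouse and carry no test.

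**Figure D3:**
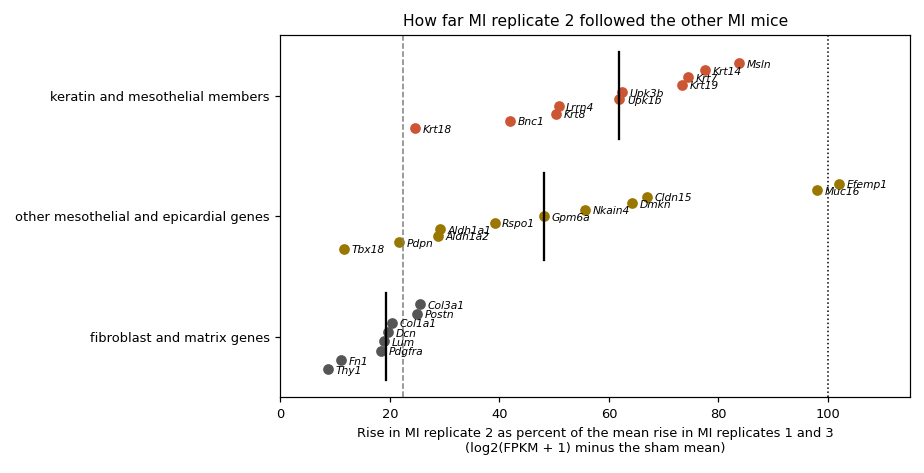
Each point is a gene whose 3 MI mice all lie above the 4 sham mice, placed by the difference of MI replicate 2 from the sham mean as a percentage of the mean difference of MI replicates 1 and 3 (horizontal axis). Black bars are list medians (61.9% for the keratin and mesothelial genes without Krt14, 48.2% for other mesothelial and epicardial genes, 19.3% for fibroblast and matrix genes), the dashed line is the median of all such genes tested (22.4%) and the dotted line marks 100%. Of the 14 other mesothelial and epicardial genes 11 are drawn, and Wt1 (-17.4%), Tcf21 (6.18%) and Calb2 (0.0%) are left out by this rule.

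Other genes of the mesothelium and epicardium were compared in the same way. Of 14 such genes, 10 passed the filter, and 3 of these (Rspo1, Nkain4 and Cldn15) did so only with the MI mice. Of the 10, 9 had every MI mouse above every sham mouse, as did 16.1% of all genes tested. Limma called 0 of the 10, as did voom on recovered fragments, with all 10 at an unadjusted p under 0.05, as were 29.5% of all genes tested in this direction. Their median log2 fold change was 1.24, against 0.21 for all genes tested, and without MI replicate 2 it was 1.59, against 0.33. Pdpn, which encodes podoplanin, was at 21.6, 3.11 and 13.8 FPKM in the MI mice and 1.64 to 1.87 in sham (log2 fold change 2.03, SE 0.516, and 2.75 without MI replicate 2). Aldh1a2, the retinoic acid enzyme of the active epicardium, was at 17.2, 4.41 and 13.2 FPKM in MI and 1.87 to 2.99 in sham. Dmkn, which encodes dermokine, was close to 0 in sham (0 to 0.0232 FPKM) and at 1.86, 0.787 and 1.12 FPKM in MI. Muc16, the gene of the mesothelin ligand CA125, was at 0.0225 to 0.126 FPKM in sham and 0.284, 0.404 and 0.551 in MI.

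Not every marker of this lineage separated the groups. Wt1, the epicardial transcription factor, was at 0.481 to 0.640 FPKM in sham and at 1.21 and 1.07 in MI replicates 1 and 3, but at 0.451 in MI replicate 2. Tcf21, shared by epicardium and fibroblasts, was at 1.54 to 2.16 FPKM in sham and 9.26, 2.14 and 10.3 in MI. Calb2, which encodes calretinin, was listed at 0 except for 0.0444 FPKM in MI replicate 3.

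The remaining keratins were mostly listed at 0. Of 49 other keratin genes in the table, 33 were at 0 in all 7 mice, 16 were above 0 in at least 1 mouse, 1 passed the filter and 0 had every MI mouse above every sham mouse, against 12.0% of all genes above 0. That 1 was Krt222, a keratin-like gene, which lay the other way, at 4.57 to 5.13 FPKM in sham and 2.49, 4.40 and 2.56 in MI (log2 fold change -0.53, SE 0.164, limma adjusted p = 0.108, and -0.73 without MI replicate 2). Every MI mouse was below every sham mouse for Krt222, as for 9.00% of all genes tested. Krt80, a type II keratin, was at 0.152 to 0.207 FPKM in sham and at 0.830 and 0.913 in MI replicates 1 and 3, but at 0.196 in MI replicate 2. Krt10 ran from 0.340 to 0.609 FPKM in sham and from 0.350 to 0.911 in MI, and Krt20 from 0 to 0.177 and from 0.110 to 0.381.

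Summed over type I and type II keratins without Krt222, type I FPKM exceeded type II in every mouse. The 27 type I genes summed to 0.912 to 1.99 FPKM in sham and to 18.2, 5.78 and 17.1 in MI, and the 26 type II genes to 0.496 to 0.884 and to 4.35, 1.91 and 4.50. The type I sum was 1.75 to 4.01 times the type II sum in sham and 4.18, 3.04 and 3.80 times in MI, and the groups overlapped. Krt14, Krt18 and Krt19 held 92.0% to 93.6% of the type I sum in the MI mice and 59.4% to 78.5% in the sham mice, where Krt10 held much of the rest. Krt7 and Krt8 held 76.5%, 88.5% and 75.1% of the type II sum in the MI mice and 50.6% to 80.3% in the sham mice, and here the groups overlapped.

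Genes of keratin anchorage gave mixed values. Of 9 plakin and junction genes in the table, 6 passed the filter, and limma and voom each called 0. Of the 6, 1, the plakophilin gene Pkp2, was at an unadjusted limma p under 0.05, as were 29.5% of all genes tested in this direction. The median log2 fold change was 0.13, or 0.18 without MI replicate 2. In 3 of the 9 (Pkp2, Evpl and Pkp3) every MI mouse lay above every sham mouse, against 12.0% of all genes above 0. Pkp2 was at 21.2 to 24.6 FPKM in sham and 28.7, 27.7 and 29.8 in MI. Dsp, which encodes desmoplakin of both heart and epithelium, was at 140 to 159 FPKM in sham and 116, 151 and 122 in MI. Evpl, which encodes the epithelial plakin envoplakin, was at 0.0867 to 0.243 FPKM in sham and 0.467, 0.422 and 0.789 in MI, above every sham mouse in each MI mouse. Pkp3, an epithelial plakophilin gene, was at 0 to 0.00751 FPKM in sham and 0.331, 0.0265 and 0.216 in MI, with 4 fragments in MI replicate 2 against 1 in sham replicate 4. The other epithelial genes of the list did not separate the groups. Ppl, the periplakin gene, was at 1.22 to 1.88 FPKM in sham and 1.44, 3.18 and 2.28 in MI, and Pkp1 was listed at 0 except for 0.0242 FPKM in MI replicate 3. Among 8 other intermediate filament genes, Vim, the filament gene of mesenchymal cells, was at 17.7 to 31.3 FPKM in sham and 94.8, 21.2 and 100 in MI, and Des, the muscle filament gene, at 360 to 392 and 724, 402 and 860.

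Markers of other epithelia were at low levels, with some higher in MI. Of 10 genes of lung and airway epithelium, 6 were listed at 0 in every mouse, among them the surfactant gene Sftpc and the lung factor gene Nkx2-1. Their sum was 0.0748 to 0.581 FPKM in sham and 0.584, 0.0951 and 0.765 in the MI mice. Of the 10, 1 had every MI mouse above every sham mouse, against 12.0% of all genes above 0. It was Ager, at 0.0166 to 0.0611 FPKM in sham and 0.464, 0.0951 and 0.288 in MI. Of 8 general epithelial genes, 0 passed the filter and 2 had every MI mouse above every sham mouse, against 12.0% of all genes above 0. Their sum was 0.147 to 0.401 FPKM in sham and 2.16, 0.573 and 1.32 in the MI mice, so that every MI mouse lay above every sham mouse, and the part of these cells in the keratin values was not tested. The 2 genes were Cldn3, at 0 to 0.199 FPKM in sham and 1.09, 0.316 and 0.908 in MI, and Cdh1, at 0 to 0.0251 and 0.409, 0.0321 and 0.108. Epcam was listed at 0 in all sham mice and in MI replicate 2, at 0.406 FPKM in MI replicate 1 and at 0.0586 in MI replicate 3.

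**Figure D4:**
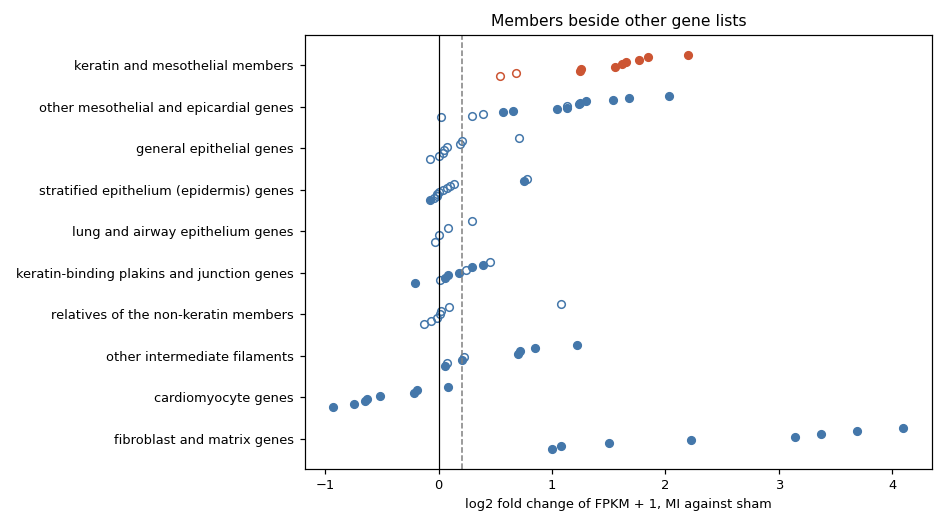
Points are log2 fold changes of FPKM + 1, MI against sham (horizontal axis), of the genes in each list, filled where the gene passed the filter and open where it did not, and the dashed line is the median of all genes tested (0.21). The keratin and mesothelial genes that passed lie between 1.25 and 2.20, and Krt7 and Bnc1, which did not, at 0.54 and 0.68. Genes at low FPKM are drawn towards 0 on this scale, so positions of open points are not comparable with those of filled ones.

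Genes whose log2 change from the sham mean was closest over the 7 mice were found by the root mean square difference among all genes tested. For Msln they were Upk3b (0.213), Krt19 (0.249), Lrrn4 (0.269), Upk1b (0.284) and ENSMUSG00000120878, a gene without a symbol here (0.314). For Upk3b they were Lrrn4 (0.198), Msln (0.213), Krt19 (0.237), the glypican gene Gpc3 (0.253) and Upk1b (0.294). Gpc3 was at 1.49, 1.57, 2.36 and 2.93 FPKM in the sham mice and 7.98, 3.66 and 11.6 in the MI mice. For Krt14 they were the sphingomyelinase gene Smpd3 (0.150), the immunoglobulin segment Igkj3 (0.158), the claudin gene Cldn15 (0.166), Ifi205 (0.173) and the complement gene C2 (0.193). Igkj3, like Krt14, was listed at 0 in all sham mice, and was at 1.86, 1.19 and 1.14 FPKM in the MI mice, while Cldn15 was at 0.799 to 1.29 in sham and 3.25, 2.65 and 4.61 in MI. The measure ranks likeness in these 7 mice and was used to choose the genes, so it carries no test. Of the genes named here, Msln, Krt19, Lrrn4, Upk1b, Krt14 and Cldn15 passed the filter only because they were high in MI. That genes of this set lay near each other is therefore not read as support.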

How the data were processed

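RNA from the myocardium of 7 mice was sequenced by the authors, who deposited 1 table of FPKM values for 56980 genes. The submitters' processing notes name CASAVA 1.8, HISAT2, SAMtools 1.3.1, edgeR and the build mm10, which is GRCm38. The annotation, the counter and the use of strand are not given in the sources used here. All value columns were used (0 unused).

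Symbols and positions came from GENCODE M21 on GRCm38 for 52073 identifiers (91.4%). Since FPKM values step by 1 fragment, fragment numbers could be recovered for 30500 of 30504 genes above 0, within 0.05 of a whole number. The length implied by the deposited FPKM differed from the exon bases in M21 for Krt7, Krt19, Msln, Upk1b and Bnc1. Reads shared with exons of Gm671 (Krt7), Gm36026 (Krt8) and 4833418N17Rik (Bnc1), on the opposite strands, cannot be assigned.

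Groups came from the sample labels. MI and sham were compared in R 4.3.3 by limma 3.58.1 (two-sided, lmFit followed by eBayes with an intensity trend) on log2(FPKM + 1) for genes at 1 FPKM or more in at least 3 mice, with Benjamini-Hochberg adjustment over the 11431 genes and a threshold of 0.05. These p-values measure the spread between mice. Tests and recovery were tested on simulated data. Genes named are the 10 members, the genes of 9 lists that define a list or differ most in it, other keratins by level in MI, and the 5 genes nearest to Krt14, Msln and Upk3b. Members and lists were chosen with earlier results of these data known, and Evpl, Pkp1, Pkp2, Pkp3, Ppl, Rspo1, Nkain4, Epcam, Cdh1 and Ager were named after their values were seen. The alternatives were those of the closing section. Python 3.11.15, pandas 2.3.3, NumPy 2.4.6 and matplotlib 3.10.9 were used.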

Additional observations from a re-analysis of the deposited data

How the results depend on the processing

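The number of the 10 genes called in MI against sham by limma was 1 with all mice. That 1 was Krt14, which was chosen on this contrast, so nothing is read from its call, and without it the number was 0. It was also 0 without Krt14 with a pseudocount of 0.1, no filter, TPM, limma without trend and voom weights on the recovered fragments. With Krt14 counted, it was 2 with quantile normalization (Upk1b as well, of 9 genes called in all), 3 with median log-ratio scaling (Krt19 and Upk1b as well, of 15) and 8 with sample weights, which gave almost all weight to MI replicate 3 and called 9952 of the 11431 genes. It was 0 with a filter on the mean, which left Krt14 untested. With the replicate number as a block limma called 0, while 8 of the 8 tested were at an unadjusted p under 0.05, as were 2332 of all genes. The numbers do not pair the mice, since the correlations of deviations were 0.074, -0.016 and -0.08. Over the mice left out in turn the number called ran from 0 to 8, with 8 without MI replicate 2, where 8195 of all genes were called, and 0 without any other mouse. The 8 were at an unadjusted p under 0.05 each time, as were 1487 to 8492 of all genes. All 10 genes, Krt14 by its selection, kept every MI mouse above every sham mouse under these 3 scalings (TPM, quantile and median log-ratio), where 16.5%, 11.0% and 13.7% of all genes tested did, and leaving out a mouse cannot change this order. Of 137 alternative values of single genes, which include a fit with no filter and without MI replicate 2 for Krt7 and Bnc1 that was chosen after seeing the data, 111 kept their side of the threshold, 19 passed it newly, 7 no longer passed it and 0 changed direction. The 7 were all of Krt14, and most of the 19 came from sample weights or from fits without MI replicate 2. This tally is therefore no measure of how firm the values of the other genes are. Log2 fold changes moved by over 1.5 times with a pseudocount of 0.1 (Krt8 2.42, Krt19 2.51, Upk1b 2.91, Lrrn4 2.44), with voom (Krt8 2.74, Krt18 3.50, Krt19 2.70, Upk1b 3.13, Lrrn4 2.60) and with TPM (Krt8 1.88). Quantile normalization and median log-ratio scaling lowered those of every gene tested of the 10, for Krt8 from 1.25 to 1.00 and 1.09 and for Upk3b from 1.65 to 1.35 and 1.42. The log2 fold change of Krt14, at 0 in sham, was 1.26 and ran from 1.11 (quantile normalization) to 6.75 (voom) over its alternatives, and is no measure of its size. The causes were not tested. Genes below 1 FPKM in sham rest on few fragments, and 0 fragments of Krt14 limit its level only to the floor given.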
